A study of Mus musculus with 24 samples.

Results

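The genes described here are the nuclear genes whose symbols mark them as parts of the mitochondrial respiratory chain or of the ATP synthase. They were chosen by symbol alone: symbols that start with Nduf, Uqcr, Atp5 or with Cox followed by a digit from 4 to 8, together with Sdha, Sdhb, Sdhc, Sdhd and Cyc1. Of 39017 genes in the count table, 105 symbols matched. The 7 pseudogene symbols ending in -ps were dropped, and so were 4 further genes that the annotation types as processed pseudogenes (Cox6c2, Ndufa11b, Ndufb4c and Ndufs6b), which left 94 protein-coding genes. Cox6a2 was set apart from the other 93. The symbols are those of the GENCODE M21 annotation, so genes of these complexes with other symbols, such as the ATP synthase inhibitor Atpif1, were not included.

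The data are 24 RNA sequencing libraries, each of a dendritic cell subset isolated by flow cytometry from the mouse spleen. The mice were F1 animals of the strains C57BL/6 and FVB/N, and their ages are not given in the labels. Flt3, the receptor for the cytokine that drives dendritic cell development, was either +/+ (WT, 12 libraries) or ITD/+ (ITD, 12 libraries), where ITD is an internal tandem duplication that activates the receptor. Counts per gene cannot show a tandem duplication, so the genotype labels were not checked. No group carried a further allele or an agent per the labels. Cells were sorted as PDC (plasmacytoid dendritic cells), C_CD8 (canonical CD8+), NC_CD8 (non-canonical CD8+), and the Esamhi and Esamlo CD11b+ cells, 5 subsets in all. Replicates are independent experiments per the design text, and the labels give them as batches: PDC libraries were of A and B, both CD8+ subsets of B, C and D, and both CD11b+ subsets of C and D. Every batch held a WT and an ITD library of each of its subsets, which gave 12 pairs.

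The respiratory chain passes electrons from NADH through complex I (the Nduf genes), or from succinate through complex II (the Sdh genes), to complex III (the Uqcr genes and Cyc1) and on to complex IV (the Cox genes), which reduces oxygen. Complexes I, III and IV pump protons across the inner mitochondrial membrane, and the ATP synthase, complex V (the Atp5 genes), uses the gradient to make ATP. Most subunits are encoded in the nucleus and a few in mitochondrial DNA, and some complex IV subunits exist as a form found in most tissues and a form restricted to few tissues. In dendritic cells, respiration is studied for its part in development, antigen presentation and the shift to glycolysis on activation. The 94 genes comprised 36 for complex I, 8 for assembly factors of complex I, 4 for complex II, 9 for complex III, 20 for complex IV and 16 for complex V, besides Atp5s, an ATP synthase coupling factor. They lay on 19 chromosomes, 3 of them on the X chromosome and 0 on the mitochondrial one. The median length of their transcripts was 863 bases, with a range from 360 to 4715, beside 2599 bases over 21226 protein-coding genes. Of the 94 genes, 54 had transcripts under 1000 bases, compared with 11.8% of all protein-coding genes.

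Cox6a2 and Cox6a1 encode alternative forms of subunit 6A of complex IV. Cox6a2 is known as the form of heart and skeletal muscle and as a marker of plasmacytoid dendritic cells, and Cox6a1 as the form of most other tissues. Their coding sequences are shown because the subsets differed most in which of the 2 genes they used, and because reads can be told apart only where the sequences differ. Cox6a2 lies on chromosome 7, minus strand, with its 294 coding bases in 3 exons between positions 128205729 and 128206295 of GRCm38. Cox6a1 lies on chromosome 5, minus strand, with 339 coding bases in 3 exons between positions 115345843 and 115348950. Both are shown in the coding direction, Cox6a2 whole and Cox6a1 from coding base 46 to 339, and the capitals mark the longest run of bases that both share, of 12 bases.
Cox6a2: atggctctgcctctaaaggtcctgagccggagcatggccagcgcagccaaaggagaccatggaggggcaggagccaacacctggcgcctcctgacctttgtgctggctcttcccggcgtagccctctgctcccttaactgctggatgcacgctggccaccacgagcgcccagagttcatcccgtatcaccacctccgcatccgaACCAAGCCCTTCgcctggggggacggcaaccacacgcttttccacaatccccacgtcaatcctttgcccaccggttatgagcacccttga
Cox6a1: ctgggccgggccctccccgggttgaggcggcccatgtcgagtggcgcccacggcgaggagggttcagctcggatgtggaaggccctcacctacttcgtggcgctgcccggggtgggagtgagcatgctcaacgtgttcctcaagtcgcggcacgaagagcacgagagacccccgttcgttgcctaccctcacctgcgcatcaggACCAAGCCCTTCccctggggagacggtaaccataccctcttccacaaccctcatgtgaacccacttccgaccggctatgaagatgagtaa
Over 293 aligned coding bases, 190 were the same (64.8%). The other such pair, Cox6b2 (a form known from testis) and Cox6b1, had 64.6% of aligned coding bases the same and a longest shared run of 14 bases. Of the 50-base words in the exons, 3.33% of those of Cox6a2 and 9.16% of those of Cox6a1 also occurred in other genes.

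Total counts ran from 11197145 to 22248404 per library. Levels are given as CPM, counts per M (mega) counts of a library after scaling with TMM factors, and between genes as CPM per kilobase of transcript. After a filter on low counts 18093 genes were tested, among them 88 of the 94 (87 besides Cox6a2). The other 6 were near or at 0: over all 24 libraries Cox7a1 had 57 reads, Cox4i2 21, Ndufa4l2 14 (10 of them in C_CD8 WT batch D), Cox8b 5, and Cox7b2 and Cox8c 0. These are the forms of complex IV subunits known from muscle, lung, testis or hypoxic cells. A gene was called when the adjusted p of edgeR's quasi-likelihood test was under 0.05, with Benjamini-Hochberg adjustment over all 18093 genes. In sorted bulk samples, fewer cells of a type and less RNA per cell cannot be told apart. Markers matched the subset names: the summed CPM of 16 pDC markers (Cox6a2 among them) was 20399 to 22400 in PDC WT and 482 to 3856 in the other WT libraries, and that of 13 cDC1 markers was 8110 to 13393 in C_CD8 WT and 1519 to 2861 in NC_CD8 WT.

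Cox6a2 was abundant in PDC libraries and close to 0 in all others. Its CPM in PDC was 252 (batch A) and 338 (B) in WT and 142 (A) and 192 (B) in ITD. In the other subsets the WT libraries lay between 0.0521 and 0.671 in C_CD8, between 1.61 and 2.70 in NC_CD8, at 0.858 and 0.570 in Esamhi, and at 1.25 and 0.241 in Esamlo. The PDC libraries were thus far above every other library, with a log2 difference in WT of 8.47 (SE 0.30) between PDC and the other 4 subsets. As Cox6a2 was set apart because it marks PDC, this difference is a description and carries no test. Per kilobase of transcript, Cox6a2 made up 61.6% and 67.4% of the summed Cox6a1 and Cox6a2 level in PDC WT, 45.7% and 55.5% in PDC ITD, and at most 1.61% in any other library. The CPM of Cox6a1 was 132 and 138 in PDC WT, inside the range of 109 to 201 over the other WT libraries. The 12 striated muscle markers, other genes of tissues known for Cox6a2, summed to 18.5 and 18.8 CPM in PDC WT, with 8 of the 12 at 0 there, among them Myh7, Myl2 and Ckm. Only 3 of the 12 passed the filter on low counts. Of these, 0 were called higher in PDC than in the other 4 subsets and 1 lower, with a median log2 difference of 1.32.

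At its low level outside PDC, Cox6a2 was higher in NC_CD8 than in C_CD8 cells. NC_CD8 WT libraries held 2.70, 2.22 and 1.61 CPM (batches B, C, D) and C_CD8 WT libraries 0.416, 0.671 and 0.0521. The groups did not overlap, and the log2 difference was 2.49 (SE 0.49, adjusted p = 0.00101, edgeR). Most of the pDC markers moved with it: 11 of the 16 (Cox6a2 among them) were called higher in NC_CD8 and 2 lower, with a median of 2.45 on the log2 scale. Of all genes 12.5% were called higher and 12.6% lower. Their summed CPM, which a few abundant markers carry, was 1498 to 2126 in NC_CD8 WT and 2078 to 3856 in C_CD8 WT. The part of pDC RNA in the level of Cox6a2 was not tested. In NC_CD8 ITD cells Cox6a2 was at 0.802, 0.681 and 1.06 CPM, below all 3 WT libraries. Of the 16 pDC markers, 5 were called lower and 2 higher there with the pair as a block. Of all 18093 genes 435 were called lower and 431 higher in that fit. The Cox6a2 difference of -1.36 on the log2 scale (SE 0.30) had an adjusted p of 0.0225 in edgeR with the pair as a block and 0.33 without it. In PDC both ITD libraries were also below both WT libraries, by -0.82 on the log2 scale (SE 0.18), and the adjusted p was 0.111 with the pair block and 1 without it, so this gene was not called in PDC.

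**Figure D1:**
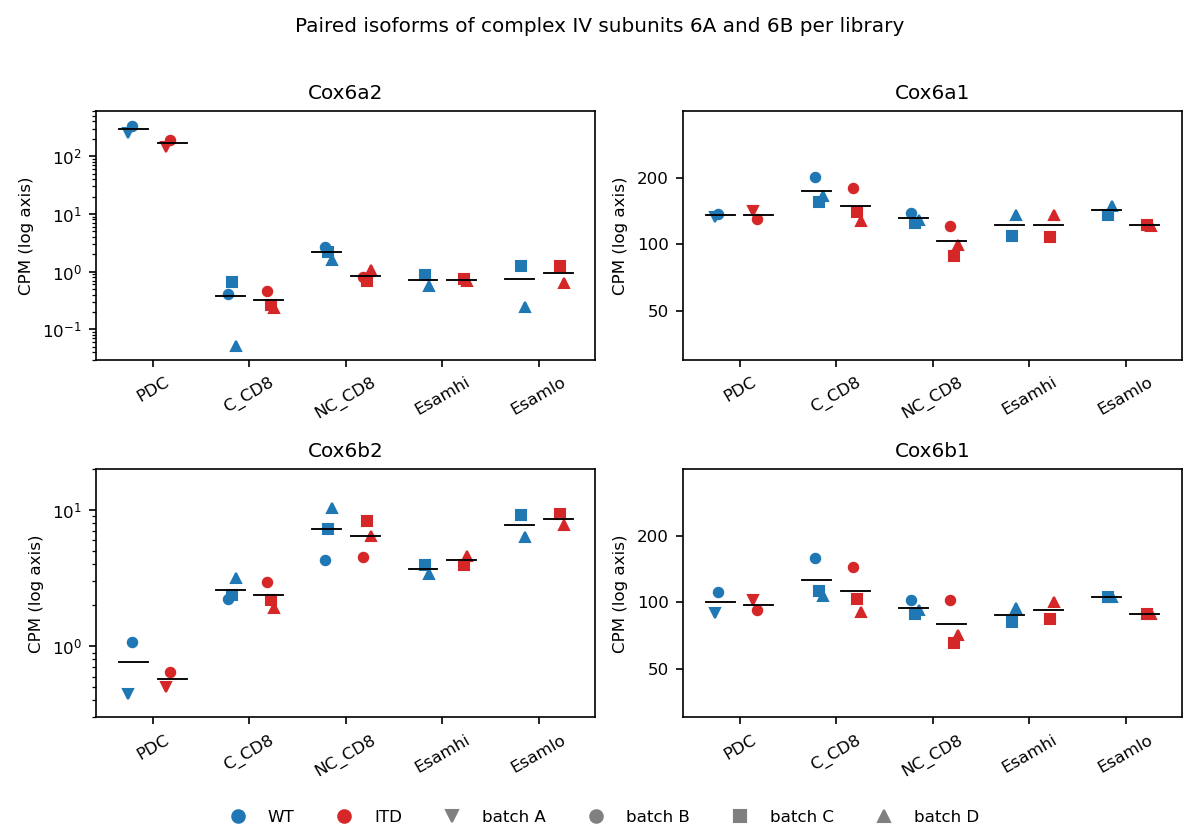
CPM of Cox6a2, Cox6a1, Cox6b2 and Cox6b1 (log axes, 1 panel per gene) in each of the 24 libraries by subset, with WT in blue, ITD in red, marker shape for the batch and a black line at each group mean. Cox6a2 stands at 142 to 338 in the PDC libraries and under 3 elsewhere, Cox6b2 is lowest in PDC, and Cox6a1 stays between 88.4 and 201 in all 24 libraries.

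Cox6b2 was lowest in PDC, where Cox6a2 was highest, and like Cox6a2 it was higher in NC_CD8 than in C_CD8 cells. Its CPM was 0.444 and 1.08 in PDC WT, 2.24, 2.40 and 3.18 in C_CD8 WT, 3.95 and 3.42 in Esamhi WT, 4.28, 7.24 and 10.4 in NC_CD8 WT, and 9.23 and 6.33 in Esamlo WT. PDC libraries were below all others, and NC_CD8 and Esamlo, the highest, overlapped each other. Cox6b2 fell in PDC against the other 4 subsets (log2 -2.66, SE 0.41, adjusted p = 4.67e-05, edgeR) and rose in NC_CD8 against C_CD8 (log2 1.48, SE 0.35, adjusted p = 0.00418). It made up 0.521% to 1.01% of the summed Cox6b1 and Cox6b2 level per kilobase in PDC and 4.23% to 11.9% in NC_CD8 libraries, so Cox6b1 was the main form in every library.

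Among the tested genes, levels spanned a wide range within each complex. In complex V the catalytic beta subunit gene Atp5b was the highest, at 451 CPM per kilobase on average over the 24 libraries, and Atp5g1 the lowest at 8.72. Among the tested genes of complex IV, Cox4i1 was highest (312) and Cox6b2 lowest (7.65), while Uqcr10 (125) and Uqcrq (38.1), both small subunits, bounded complex III. Complex II ran from Sdhb, its iron-sulfur subunit (113), to Sdhc, a membrane anchor (21.1), and complex I from Ndufa6 (120.5) to Ndufb2 (2.73). The transcript used for Atp5g1 has 4715 bases and that for Ndufb2 4371, so their low values per kilobase depend on the transcript chosen. The 3 genes Atp5g1, Atp5g2 and Atp5g3 encode the same mature subunit c, which forms the rotor ring of the ATP synthase. Per kilobase, Atp5g3 supplied 82.5% to 87.2% of their sum in the 10 groups, Atp5g2 9.91% to 14.6% and Atp5g1 2.77% to 3.75%. Atp5g3 was thus the main source in every group, and its mean CPM, without division by length, was also the highest of these genes. The order of Atp5g1 and Atp5g2 rests on the 4715 bases used for Atp5g1. By mean CPM, Atp5g1 was above Atp5g2 in each of the 10 groups, so the shares depend on the transcript chosen. Of the 50-base words of Atp5g2, 38.3% also occur in other genes, so its share is less certain.

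**Figure D2:**
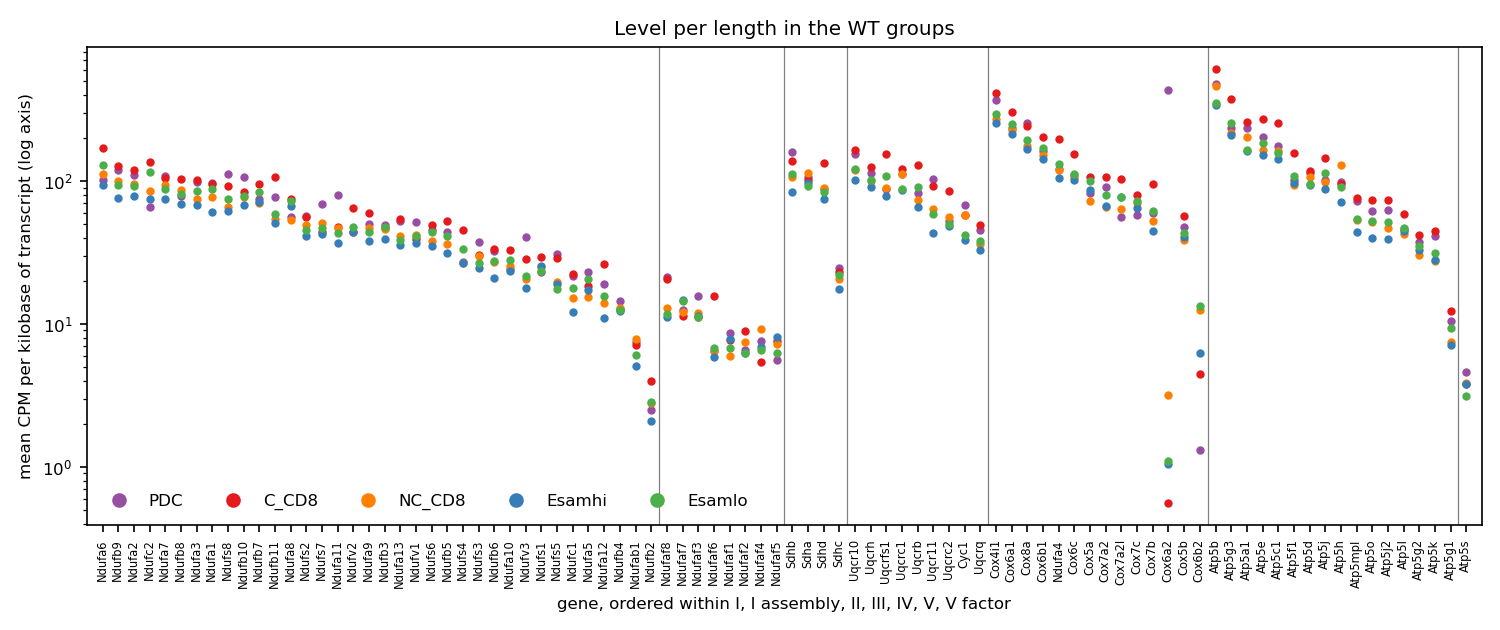
Mean CPM per kilobase of transcript (log axis) in the WT libraries of each subset (colour) for the 88 tested genes, ordered within complex by their mean level. Atp5b and Cox4i1 stand at the top, and the 5 colours lie close together for most genes other than Cox6a2 and Cox6b2.

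Summed over the genes besides Cox6a2, the WT group mean was highest in C_CD8 and lowest in Esamhi. The WT sums were 8648 CPM ± 1442 (SD, n = 3) in C_CD8, 7262 ± 10.5 (n = 2) in PDC, 6484 ± 735 (n = 3) in NC_CD8, 6321 ± 239 (n = 2) in Esamlo and 5594 ± 146 (n = 2) in Esamhi. The range in C_CD8 WT was 7721 to 10310, above the 6026 to 7332 of NC_CD8 WT. The 2 PDC WT libraries (7255 and 7270) and the 2 Esamlo WT libraries (6152 and 6489) lay inside the NC_CD8 WT range, while all Esamhi WT libraries lay below it. The batch mattered for these sums: in C_CD8, the library of batch B was above the mean of batches C and D in 79 of 87 genes in WT and 77 in ITD, with medians of 0.44 and 0.43 on the log2 scale. In NC_CD8 the medians were 0.21 in WT and 0.37 in ITD. PDC shares only batch B with the CD8+ subsets and no batch with the CD11b+ subsets.

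**Figure D3:**
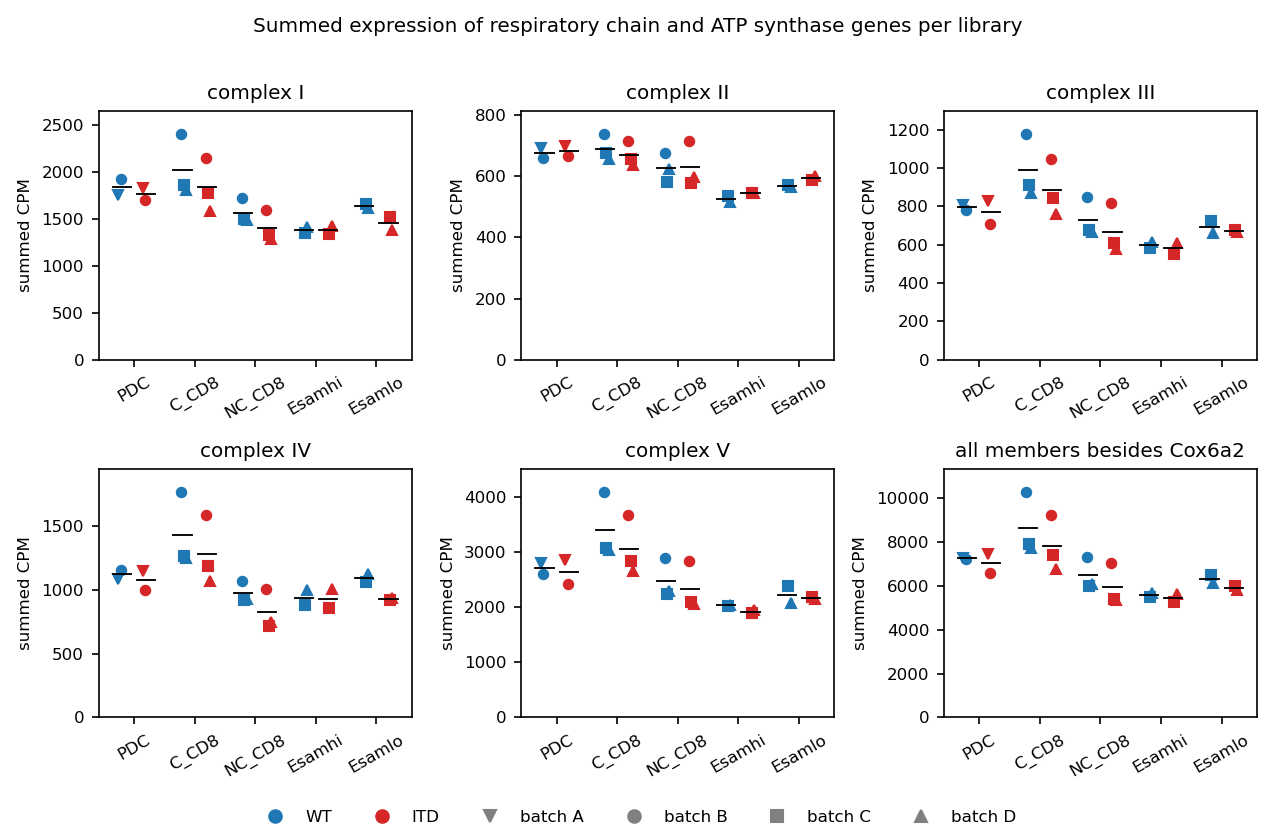
Summed CPM per library of the genes of complexes I to V and of all genes besides Cox6a2 (6 panels, axes from 0), by subset, genotype (WT blue, ITD red) and batch (marker shape), with a line at each group mean. Among the WT groups, C_CD8 has the highest and Esamhi the lowest mean in each panel. In the panel of all genes the circle of batch B lies above C and D in both CD8+ subsets, and NC_CD8 ITD of batches C and D (5427 and 5364) lies within the range of the Esamhi libraries.

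A test for any difference among the 5 WT subsets called 46 of 87 genes, beside 46.7% of all genes tested, and with the batch as an additive block 71 of 87, beside 64.1%. The share of the 87 was at the background without the block.

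The most genes were called lower between the CD8+ subsets. NC_CD8 and C_CD8 cells came from the same 3 batches. In WT, 37 of 87 genes fell in NC_CD8 against C_CD8 (12.6% of all genes fell) and 2 rose (12.5% of all genes rose). The median log2 change of the 87 genes was -0.44, and over all genes it was -0.00. With the batch block 56 fell, beside 21.5% of all genes, and all 39 genes called without the block were called in the same direction with it.

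By share of its genes, complex V stood first with 10 of 16 that fell, next to complex IV with 8 of 13, and then complex III with 4 of 9, complex I with 12 of 36 (the largest number), its assembly factors with 2 of 8 and complex II with 1 of 4. Atp5g3, the main subunit c gene, had 316, 235 and 262 CPM in C_CD8 WT and 164, 154 and 149 in NC_CD8 WT (batches B, C, D). Every NC_CD8 library was below every C_CD8 library, and the change was -0.80 on the log2 scale (SE 0.15, adjusted p = 0.000849, edgeR). Atp5g1 (log2 -0.73) and Atp5f1 (-0.74), which encodes subunit b of the stalk that holds the catalytic head, fell with it. Among complex IV genes, Cox7b, a small X-linked subunit, went from 129, 78.1 and 76.7 CPM in C_CD8 WT to 58.8, 52.5 and 46.5 in NC_CD8 WT. Its groups did not overlap either (log2 -0.85, SE 0.23, adjusted p = 0.0114, edgeR). The widely expressed forms Cox4i1 (-0.61), Cox7a2 (-0.71) and Cox8a (-0.47) fell, as did Ndufa4 (-0.71), now counted with complex IV. Cox6a1 (log2 -0.41, adjusted p = 0.0592, edgeR) and Cox6b1 (-0.41, adjusted p = 0.137) were not called.

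In complex III, the Rieske iron-sulfur protein gene Uqcrfs1 (-0.79) and Uqcrb (-0.80) fell. Uqcrb shares 25.5% of its 50-base words with other genes, so its counts are less certain. In complex I the largest falls were in the accessory subunits Ndufb11 (-0.98), Ndufa12 (-0.91) and Ndufs4 (-0.78). The assembly factors moved apart. Ndufaf6 had 15.3, 20.5 and 14.9 CPM in C_CD8 WT and 6.79, 8.12 and 6.04 in NC_CD8 WT, so the groups did not overlap (log2 -1.27, SE 0.25, adjusted p = 0.00088, edgeR). Ndufaf4 rose instead, from 25.6, 17.3 and 16.4 CPM to 39.6, 28.4 and 32.2 (log2 0.76, SE 0.21, adjusted p = 0.0133, edgeR). With Cox6b2 it was the only gene of the 87 called higher in NC_CD8 without the batch block.

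**Figure D4:**
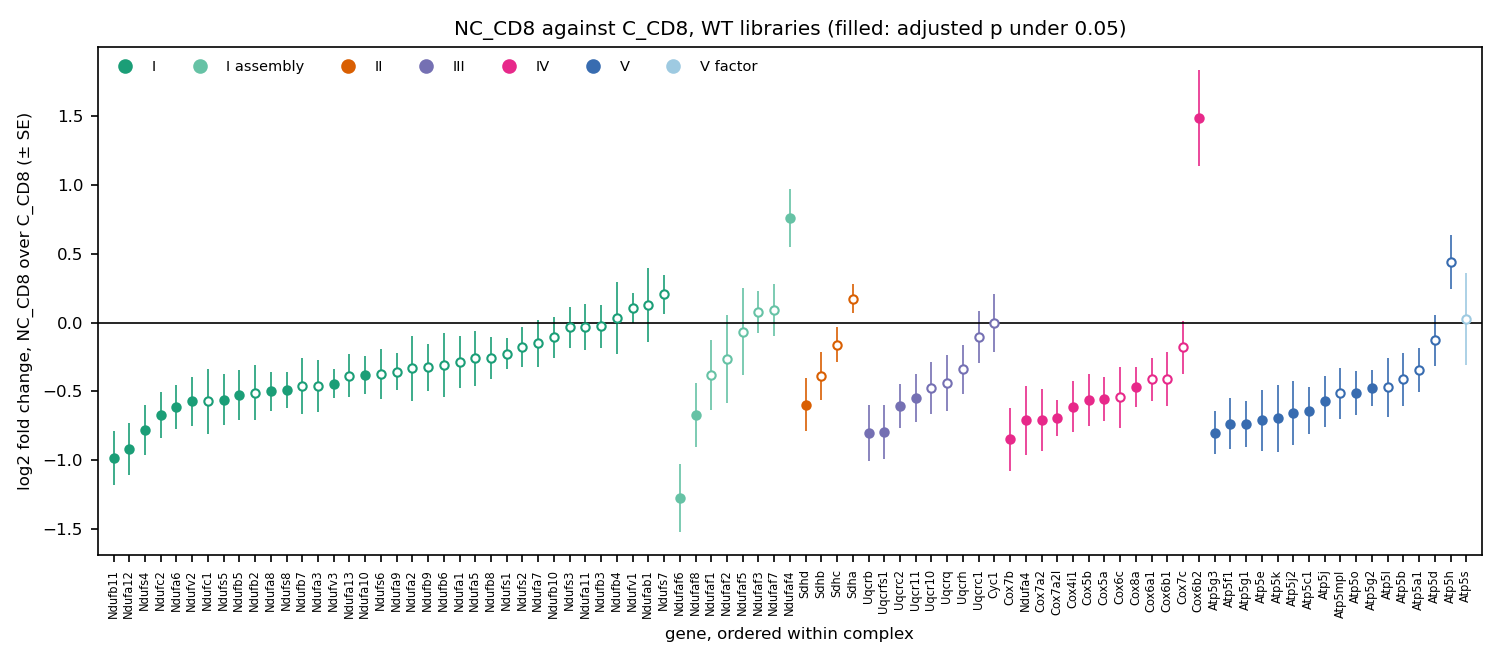
Log2 fold change of NC_CD8 over C_CD8 in WT libraries (vertical axis, with SE bars from edgeR) for the 87 genes, coloured and ordered by complex, with filled points for adjusted p under 0.05. Points lie below 0 in every complex, and Cox6b2 (1.48) and Ndufaf4 (0.76) are the filled points above it.

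Within batches the same difference was present in both genotypes. The median over the 87 genes of NC_CD8 minus C_CD8 on the log2 CPM scale was -0.57, -0.38 and -0.33 in WT (batches B, C, D) and -0.49, -0.54 and -0.40 in ITD. In all 6 within-batch differences 61 genes were lower, beside 25.1% of all genes. In all 6, 4 genes were higher (Ndufs7, Ndufaf4, Atp5h and Cox6b2), beside 22.9% of all genes. Ndufs7 encodes a core iron-sulfur subunit of complex I and Atp5h subunit d of the ATP synthase stalk. The WT fold changes of these genes were 0.20 (Ndufs7) and 0.44 (Atp5h) on the log2 scale and were not called (adjusted p = 0.309 and 0.111, edgeR).

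Several other properties moved with this difference, and their part in it was not tested. The 86 genes of cytosolic ribosomal proteins had a median of -0.42, and 32 of them fell. The other short protein-coding genes (388, under 1000 exonic bases) had a median of -0.20, while genes of the respiratory chain had medians from -0.35 to -0.49 in 5 classes of exon length. The summed CPM of 12 cDC2 markers was 81.5 to 115 in C_CD8 WT and 1462 to 1809 in NC_CD8 WT. Monocyte and neutrophil markers summed to 25.1 to 78.2 and 432 to 629, and early response genes to 13244 to 21512 and 18495 to 22358. Without C_CD8 WT of batch B, 12 of the 87 genes were called in either direction, without NC_CD8 WT of batch C 20, and without that of batch D 17.

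Other genes of mitochondrial respiration were read from lists chosen for this tissue and pathway. In NC_CD8 against C_CD8, 12.6% of all genes fell and 12.5% rose. Without the batch block, the shares that fell in these lists were near or little above that, apart from the carriers of ATP and phosphate. With the block 21.5% of all genes fell. Of 77 mitochondrial ribosomal protein genes 33 then fell and 1 rose. Of 13 mitochondrially encoded subunits 5 fell and 0 rose, and of 43 assembly factors outside the symbol rule 12 fell and 4 rose. Electron carriers (4 of 17 fell, 2 rose) and tricarboxylic acid cycle genes (4 of 19 fell, 5 rose) stayed near the share of all genes. The counts below are without the block. Of 13 subunits encoded in mitochondrial DNA, 2 fell in NC_CD8 against C_CD8 and 0 rose, with a median of -0.32: mt-Cytb (log2 -0.72), the cytochrome b of complex III, and mt-Co1 (-0.56), the catalytic subunit of complex IV. Of 77 mitochondrial ribosomal protein genes, 14 fell and 0 rose (median -0.32). Of 8 carriers of ATP and phosphate, 4 fell: Ucp2 (-1.11), Vdac2 (-0.89) and the ADP/ATP carriers Slc25a5 (-0.61) and Slc25a4 (-0.58). Cytochrome c (Cycs, -0.98) was among 3 of 17 electron carrier genes that fell, while Coq8a (1.83), needed for ubiquinone synthesis, was 1 of 2 that rose. The tricarboxylic acid cycle genes split, with 3 of 19 higher, led by Idh2 (1.18), and 3 lower, among them citrate synthase Cs (-0.67). Of 43 assembly factors outside the symbol rule, 7 fell, led by Tmem70 (-0.92) and Tmem126a (-0.87), and Sdhaf1 (1.44), an assembly factor of complex II, was the 1 that rose.

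Of 20 regulators of mitochondrial genes, 6 rose in NC_CD8 WT, beside 12.5% of all genes, and 1 fell, beside 12.6%. The coactivators Ppargc1a and Ppargc1b had group means of 0.392 and 0.541 CPM in C_CD8 WT and 5.22 and 3.95 in NC_CD8 WT (adjusted p = 0.00305 and 0.0427, edgeR). The transcription factor Nrf1 (log2 0.38, adjusted p = 0.026) and the mitochondrial DNA packaging factor Tfam (0.51, adjusted p = 0.036) also rose. Gabpa (0.13) and Esrra (0.23) were not called. The 1 lower gene was Polg (-0.69), the mitochondrial DNA polymerase.

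PDC were compared with the mean of the other 4 subsets in WT. Of 87 genes, 14 rose (20.4% of all genes rose) and 3 fell (17.8% of all genes fell), with a median of 0.15 on the log2 scale against -0.02 over all genes. This comparison turned on the batches: with the batch block 9 rose, beside 24.7% of all genes, and 31 fell, beside 25.5%. The median became -0.18, and 35 of the 87 genes changed sign. Genes called in both fits were 7 higher and 3 lower ones. Batch A held PDC libraries alone, so with the block the level of PDC against the other subsets rested on batch B. The CD11b+ subsets were then reached only through the CD8+ libraries. Both fits use the same libraries, so a call in both is not independent support. The cytosolic ribosomal protein genes also moved, from a median of -0.30 to -0.70 with the block, and this was not tested further. In batch B, the only one shared, the PDC minus C_CD8 median of the 87 genes was -0.45 in WT and -0.50 in ITD, and the PDC minus NC_CD8 median was 0.12 and 0.0061.

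The 7 genes higher in PDC in both fits were Ndufv3, Ndufa11, Ndufs7, Ndufs8, Ndufv1 and Ndufaf3 of complex I or its assembly, and Uqcr11 of complex III. Ndufv3, Ndufv1, Ndufs7 and Ndufs8 encode subunits of the peripheral arm of complex I, which passes electrons from NADH to ubiquinone. Ndufv3 had 56.0 and 71.7 CPM in PDC WT, above all other WT libraries, which lay between 28.1 and 46.3. Its log2 change was 0.89 (SE 0.09, adjusted p = 6.48e-07, edgeR), and 0.97 with the batch block. Ndufa11 rose by 0.87 on the log2 scale (SE 0.15), Uqcr11 by 0.73, Ndufs8 by 0.61 and Ndufs7 by 0.58. In batch B the PDC minus C_CD8 difference in WT was 0.63 for Ndufv3, 0.65 for Ndufa11, 0.63 for Ndufs7, 0.56 for Ndufv1 and 0.68 for Ndufaf3. It was only 0.02 for Uqcr11 and 0.04 for Ndufs8. For these last genes the PDC and C_CD8 WT libraries overlapped in CPM, so they were not higher in PDC than in every other subset. Ndufaf8 (0.65), Ndufs5 (0.57), Sdhb (0.56), Cyc1 (0.50) and Ndufb10 (0.47) also passed without the block, with adjusted p of 0.359, 0.15, 0.417, 0.58 and 0.083 with it. Besides Cox6b2, the genes lower in both fits were Ndufc2, a membrane arm subunit of complex I (log2 -0.61, adjusted p = 0.00795, edgeR), and Cox7a2l (-0.51, adjusted p = 0.00457). Cox7a2l takes part in joining complexes III and IV into supercomplexes. None of the 16 complex V genes was called in either direction without the block. In batch B, though, each of these 16 genes was lower in PDC than in C_CD8 WT, from -0.18 (Atp5g2) to -1.17 (Atp5f1) on the log2 scale. Against NC_CD8 WT of that batch they went both ways, from -0.56 (Atp5h) to 0.65 (Atp5mpl).

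Of 77 mitochondrial ribosomal protein genes 15 rose in PDC and 2 fell (median 0.22), a share of higher genes near the 20.4% of all genes, and with the batch block 14 rose and 11 fell (median 0.06). Of 43 assembly factors outside the symbol rule 11 rose and 2 fell, and with the block 15 rose and 4 fell. Of 19 tricarboxylic acid cycle genes 5 fell and 1 rose, and with the block 8 fell and 0 rose. Of all genes 20.4% rose and 17.8% fell without the block, and 24.7% rose and 25.5% fell with it. Ppargc1b rose (log2 2.19, adjusted p = 0.027, edgeR), while Ppargc1a (1.13), Nrf1 (0.22), Tfam (0.26), Gabpa (0.28) and Esrra (-0.18) were not called. Early response genes summed to 8704 to 14865 CPM in PDC WT, below the NC_CD8, Esamhi and Esamlo WT groups and overlapping C_CD8 WT (13244 to 21512). Of 8 tested fibroblast markers 7 were called higher in PDC, with a sum of 1.51 CPM in 1 PDC WT library and 181 in the other, and at most 3.38 in any other WT library. Of 9 plasma cell markers 4 were called higher and 1 lower, with sums of 1879 and 1956 CPM in PDC WT and 294 to 583 in the other WT libraries. The part of these cells and genes was not tested.

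CD8+ cells (the mean of C_CD8 and NC_CD8) were compared with CD11b+ cells (the mean of Esamhi and Esamlo) in WT. Of 87 genes 13 rose in CD8+ cells (7.05% of all genes rose) and 0 fell (7.98% of all genes fell, and 1 of the 87 was lower at an unadjusted p under 0.05). The median was 0.26, against 0.03 over all genes. The genes that rose included Atp5b (0.61), Atp5a1 (0.48), Atp5c1 (0.44) and Atp5o (0.43), the beta, alpha and gamma subunits and the stalk subunit OSCP of the ATP synthase, and Cyc1 (0.52), Uqcr11 (0.60) and the core protein Uqcrc2 (0.50) of complex III. Ndufaf6 (0.67), Ndufa12 (0.54) and Sdhd (0.47), a membrane anchor of complex II, also rose. Atp5o shares 41.6% of its 50-base words with other genes. With the batch block 20 were called higher, beside 12.6% of all genes, and all 13 were among them. The median fell to 0.13 with the block, and 7 of the 87 genes changed sign. Of these subsets only the CD8+ ones had libraries of batch B. Of the 86 cytosolic ribosomal protein genes 11 rose and 0 fell in this comparison (median 0.24), and their part was not tested. Within batches C and D the median differences were 0.18 and 0.11 in WT and 0.09 and -0.007 in ITD, below the 0.26 of the whole comparison. The calls also turned on single libraries: with Esamlo WT of batch D left out 0 were called, with Esamhi WT of D 3, with Esamhi WT of C or C_CD8 WT of B 5 each, and with NC_CD8 WT of B 7.

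Between Esamhi and Esamlo WT cells 0 of 87 genes were called by edgeR, beside 0.658% of all genes, and 0 by DESeq2. At an unadjusted p under 0.05, 6 were lower in Esamhi. The median was -0.22. With the batch block 4 fell in Esamhi, beside 3.74% of all genes: Ndufc2 (log2 -0.62, adjusted p = 0.0116), Uqcrfs1 (-0.45), Sdhb (-0.41) and Atp5o (-0.39). Sdhb had 95.7 and 96.0 CPM in Esamhi WT and 129.9 and 124 in Esamlo WT. Ribosomal protein genes had a median of -0.36 in the same comparison, and their part was not tested.

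Most of these genes had slightly lower mean levels in ITD than in WT cells, by less than they differed between the CD8+ subsets. Averaged over the 5 subsets, 84 of 87 genes had a negative log2 change, with a median of -0.12, but 0 were called by edgeR (0.359% of all genes were called), 0 by DESeq2, and 9 had an unadjusted p under 0.05. With the pair block, which compares the 2 libraries of each pair, 15 fell, beside 2.34% of all genes, and 1 rose, beside 4.49%. The counts of genes called thus depended on the block.

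The 15 genes that fell with the pair block were 4 of complex I, 1 of complex II, 1 of complex III, 4 of complex IV and 5 of complex V. Cox7b fell the most (log2 -0.29, SE 0.05, adjusted p = 0.00456, edgeR), followed by Atp5g1 (-0.25), Ndufa4 (-0.24), Ndufa2 (-0.22), Uqcrq (-0.20) and Atp5g3 (-0.20, SE 0.04, adjusted p = 0.00691). Ndufb11, Ndufs4, Atp5j and Sdhb each had a log2 change of -0.19. Without the block the adjusted p of these genes lay between 0.31 and 0.674. Sdha, the flavoprotein subunit of complex II that oxidises succinate, was the 1 gene that rose (log2 0.14, SE 0.03, adjusted p = 0.0251, edgeR with the pair block).

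Sdha was higher in ITD in 12 of 12 pairs. Its CPM went from 319 to 325 and from 296 to 334 in PDC (batches A, B), and from 257 to 287, 314 to 317 and 309 to 318 in C_CD8 (B, C, D). In NC_CD8 it went from 333 to 394, 308 to 354 and 352 to 365, in Esamhi from 294 to 322 and 272 to 300.0, and in Esamlo from 262 to 308 and 274 to 318 (C, D). The WT and ITD libraries overlapped in C_CD8 and did not overlap in the other 4 subsets. Sdha was the 1 of 87 genes higher in all 12 pairs, a share near the 1.09% of all genes. Lower in all 12 pairs were 5 genes, Atp5g1, Ndufb10, Ndufb6, Ndufs4 and Atp5f1, beside 0.669% of all genes. In 10 or more pairs 41 of 87 were lower, beside 7.78% of all genes. Ndufb6 shares 31.6% of its 50-base words with other genes. Pairs of the same batch may share handling, and genes of a complex are not independent of each other.

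The medians over the 87 genes within pairs were 0.06 and -0.19 in PDC (A, B), -0.16, -0.10 and -0.22 in C_CD8 (B, C, D), -0.08, -0.25 and -0.25 in NC_CD8, -0.05 and -0.00 in Esamhi, and -0.13 and -0.24 in Esamlo (C, D). PDC of batch A was the pair with a positive median, with 26 of 87 genes lower. Cytosolic ribosomal protein genes had a median ITD change of -0.13 on average and 17 of 86 fell with the pair block, and short genes had a median of -0.11. Their part was not tested. With the pair block and each pair left out in turn, between 2 genes (without PDC of batch B) and 21 (without NC_CD8 of batch B) were called lower, and leaving out any of 8 pairs gave under 10. Sdha was no longer called higher without PDC of batch B, C_CD8 of B or D, or NC_CD8 of B or C. The same held without Esamhi of batch C or D.

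By subset, edgeR without the block called 0 of the 87 genes in PDC (0.0608% of all genes were called), 0 in C_CD8 (0.0166%), 0 in NC_CD8 (0.31%), 0 in Esamhi (0%) and 0 in Esamlo (0.00553%), and DESeq2 also called 0 in each. At an unadjusted p under 0.05 there were 0, 0, 7, 0 and 3. With the pair block, genes at an unadjusted p under 0.05 numbered 2 in PDC, 21 in C_CD8, 32 in NC_CD8, 1 in Esamhi and 31 in Esamlo, beside 6.41%, 11.8%, 19.3%, 6.22% and 13.1% of all genes. Of these, 2, 21, 30, 1 and 29 were lower in ITD, and the block left 0 called in each subset other than NC_CD8. Without the block, the test for an ITD effect that differs among subsets called 0 of the 87 and 0% of all genes. In that fit 0 of the 87 had an unadjusted p under 0.05. With DESeq2 or the pair block 0 of the 87 were called. Under the pair block 5 of the 87 had an unadjusted p under 0.05, beside 9.96% of all genes, and 55 of all 18093 genes were called. A difference in the ITD effect between subsets was therefore not shown for any of these genes.

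With the pair block 5 genes fell in NC_CD8 ITD cells, beside 2.4% of all genes. Cox7b went from 58.8 to 46.2, from 52.5 to 32.6 and from 46.5 to 29.8 CPM (batches B, C, D), and all ITD libraries were below all WT libraries (log2 -0.56, SE 0.09, adjusted p = 0.00598, edgeR with the pair block). Sdhb went from 137 to 111, from 110.4 to 67.8 and from 117 to 79.7 CPM. The ITD library of batch B was above the WT library of batch C, so the groups overlapped, though ITD was lower in each pair (log2 -0.52, SE 0.09, adjusted p = 0.00573). Uqcr11 (-0.43), Uqcr10 (-0.41) and Cox6a1 (-0.36) fell by less, with adjusted p of 0.0338, 0.0461 and 0.0245. Without the block the adjusted p of the 5 genes lay between 0.432 and 0.691. Leaving out the NC_CD8 pair of batch C gave 0 called lower in NC_CD8, and leaving out that of batch D gave 2. In the same fit 10 of 13 cDC1 markers were called lower in NC_CD8 ITD cells, 5 of 10 red pulp macrophage markers, 4 of 9 erythroid markers, 4 of 10 T cell markers and 3 of 10 NK cell markers. The cDC1 markers summed to 1126 to 1171 CPM in ITD (1519 to 2861 in WT), NK cell markers to 86.9 to 110.3 (138 to 208) and red pulp macrophage markers to 59.3 to 168 (42.2 to 999). Of 10 tested monocyte and neutrophil markers 0 were called (median -0.13), although their sum was 692 to 816 CPM in ITD and 432 to 629 in WT. Early response genes summed to 23083 to 27017 CPM (18495 to 22358 in WT), with 1 of 14 called higher. The part of these cells and genes was not tested.

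The promoters of these 5 genes are shown because they fell together in NC_CD8 ITD cells. The sequences are the 250 bases before the RefSeq start of each gene, 5′ to 3′ on the strand of the gene, from RefSeq for GRCm38.p6, and end where the GENCODE M21 gene begins if that is earlier (182 bases for Sdhb, 241 for Uqcr11 and 227 for Cox6a1). Both strands of the window were searched for 4 motifs known from genes of the respiratory chain, GCGCATGCG for NRF1, CCGGAAG for GABPA, CAAGGTCA for the ERR receptors and AAGATGGCG for YY1. Capitals mark a match.
Cox7b (chromosome X, 106015450 to 106015699, plus strand): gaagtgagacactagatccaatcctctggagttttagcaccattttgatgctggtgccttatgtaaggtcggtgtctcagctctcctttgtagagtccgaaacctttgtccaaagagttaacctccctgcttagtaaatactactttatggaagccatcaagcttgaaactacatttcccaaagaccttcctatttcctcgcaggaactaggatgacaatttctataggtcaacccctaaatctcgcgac
Sdhb (chromosome 4, 140961021 to 140961202, plus strand): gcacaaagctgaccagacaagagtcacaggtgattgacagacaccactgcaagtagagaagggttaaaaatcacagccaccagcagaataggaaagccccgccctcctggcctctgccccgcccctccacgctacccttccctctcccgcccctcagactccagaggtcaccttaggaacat
Uqcr11 (chromosome 10, 80406831 to 80407071, minus strand): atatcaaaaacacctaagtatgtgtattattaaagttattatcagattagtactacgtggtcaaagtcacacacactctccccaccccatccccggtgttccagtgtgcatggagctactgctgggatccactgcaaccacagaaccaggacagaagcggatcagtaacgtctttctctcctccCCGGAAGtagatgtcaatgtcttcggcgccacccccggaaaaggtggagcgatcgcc
Uqcr10 (chromosome 11, 4704345 to 4704594, minus strand): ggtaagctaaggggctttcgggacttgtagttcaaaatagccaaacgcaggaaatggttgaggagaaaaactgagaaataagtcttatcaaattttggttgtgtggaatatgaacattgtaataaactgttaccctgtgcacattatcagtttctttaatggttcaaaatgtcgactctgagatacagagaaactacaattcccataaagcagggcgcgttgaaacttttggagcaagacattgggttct
Cox6a1 (chromosome 5, 115348982 to 115349208, minus strand): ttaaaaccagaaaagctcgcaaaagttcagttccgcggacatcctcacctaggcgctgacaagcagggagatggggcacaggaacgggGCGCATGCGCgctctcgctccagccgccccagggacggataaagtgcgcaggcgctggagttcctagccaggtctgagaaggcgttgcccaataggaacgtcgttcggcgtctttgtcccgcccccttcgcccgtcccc
In these stretches Uqcr11 held the GABPA letters, Cox6a1 held the NRF1 letters (overlapping on both strands), and Cox7b, Sdhb and Uqcr10 held none of the 4. Over the whole windows of 300 bases, which reach 50 bases past the start, Sdhb and Cox6a1 also held the GABPA letters and Uqcr11 the NRF1 letters, while Cox7b and Uqcr10 held none of the 4. Of the 94 genes, 76 had an entry in the promoter table. GABPA letters were in 18 of the 76 (23.7%, beside 9.93% of 27025 genes), NRF1 letters in 10 (13.2%, beside 1.95%), YY1 letters in 8 (10.5%, beside 1.64%) and ERR letters in 4 (5.26%, beside 1.76%). At least 1 of the 4 was in 32 (42.1%, beside 14.3%). A match describes letters in the window and shows no binding, and no match says only that these letters were not there.

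Other genes of the pathway were read in the same fit. With the pair block 2.34% of all genes fell on average over the subsets and 4.49% rose. Of 77 mitochondrial ribosomal protein genes 9 fell and 0 rose (median -0.12). Of the 13 mitochondrially encoded subunits, mt-Nd3 fell (log2 -0.33) and 0 rose. Cycs (-0.19) and Gpd2 (-0.17), the mitochondrial glycerol phosphate dehydrogenase, fell among the electron carriers, and Slc25a5 (-0.18) among the carriers of ATP. Of the assembly factors, Sdhaf1 (0.48) and Cox15 (0.21) rose and Cox14 (-0.16) fell. No tricarboxylic acid cycle gene was called, and none of the regulators, Ppargc1a, Ppargc1b, Nrf1, Gabpa, Esrra and Tfam among them.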

How the data were processed

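Per the labels' protocols, RNA of sorted cells was purified with PicoPure columns, for some libraries after Trizol (which ones is not given), and amplified with a low-input SMART-seq v4 kit. The submitters' processing notes name mm10 and, as tools, DESeq2 1.8.2, bcl2fastq 1.8.4 and Bowtie2 (listed as version 0.4). Not given in the sources used here were the read counter, the annotation and the strandedness, so a gene and an overlapping antisense gene cannot be told apart. The authors deposited raw counts per Ensembl gene and a normalized table, and the counts were analysed. Genes with no symbol in GENCODE M21 held 0.598% of all counts.

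In edgeR 4.0.16 (R 4.3.3, limma 3.58.1), TMM factors set the scale and filterByExpr, with a minimum count of 10, removed low genes. A quasi-likelihood model with 10 group means was fitted to all 24 libraries, leaving 14 residual degrees of freedom, and adjusted with Benjamini-Hochberg over 18093 genes. SE is the log2 fold change divided by the square root of F. Differences within pairs and batches used log2 CPM with a prior count of 2. Alternatives were an additive batch block (11 residual degrees of freedom), a block on the pair (7), DESeq2 1.42.0, other scalings and filters, ITD in place of WT libraries, a fit to only the groups compared, and leaving out each library. The fits were tested on simulated data without batch or pair effects, so how the blocks handle such effects was not tested. Sequences were compared with Biopython 1.88, and plots drawn with matplotlib 3.10.9.

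The numbers pair the samples because equal replicate numbers within a subset carry the same batch letter in the labels. After group means were subtracted, the correlation across genes between both libraries of a pair was r = 0.134 to 0.646 over 12 of 12 pairs. In PDC, Esamhi and Esamlo both pairs of a subset have the same r by construction, so the 12 values are not independent. Replicates differed by more than counting noise (chi-square per degree of freedom 14.2 to 94.2). The labels do not say which libraries came from which mice, so p-values measure the spread between these samples.

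The members and the gene lists were chosen with earlier results of these data known. Named genes are Cox6a2 and the genes with paralogous forms, up to 10 called genes in each direction by size of change in each comparison, the highest and lowest gene of each complex per length, genes with the same sign in 12 of 12 pairs, up to 4 called genes of a list, and the regulators Ppargc1a, Ppargc1b, Nrf1, Gabpa, Esrra and Tfam. Other names were chosen after their values were seen.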

Additional observations from a re-analysis of the deposited data

How the results depend on the processing

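The counts of genes called (of 87) without a block were set against the alternatives. With the experiment batch as a replicate block, the counts became 40 for PDC (17 without it), 20 for CD8+ against CD11b+ (13), 59 for NC_CD8 against C_CD8 (39), 4 for Esamhi against Esamlo (0) and 71 for any difference among subsets (46). With the pair as a replicate block they became 16 for the ITD average and 5 for ITD in NC_CD8 (0 each without it), and the block changed no count in the other ITD comparisons beyond 1.5 times. For CD8+ against CD11b+ the count was 21 with total-count scaling, 5 with no filter on low counts, 4 with ITD libraries in place of WT and 5 with only the libraries of the groups compared, which for NC_CD8 against C_CD8 gave 17. Of 99 settings other than leaving out a library, 87 stayed within 1.5 times. With total-count scaling the median of all genes in NC_CD8 against C_CD8 shifted to 0.11, that of the 87 became -0.32, and 23 fell and 3 rose. Leaving out 1 library at a time gave 7 to 22 for PDC (10 without PDC WT of batch A, 7 without that of batch B), 0 to 17 for CD8+ against CD11b+, 12 to 40 for NC_CD8 against C_CD8, 27 to 48 for any difference (30 without PDC WT of batch B, 27 without C_CD8 WT of batch B) and 0 in each ITD comparison. The cause was not tested. Among 605 alternatives of 37 single-gene results, all between WT subsets, 515 kept their call, 90 were no longer called and 0 reversed. The ITD results called with the pair block were not among these 37, and none of them was called without the block. Adding the 4 annotated pseudogenes, or leaving out the 6 genes that share over 25% of their words, was chosen after seeing the data and changed no count beyond 1.5 times. Leaving out pairs under the pair block was also chosen after seeing the data. Reads carry no molecular identifiers, so depth limits the genes under a few CPM, such as Cox6a2 outside PDC.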
